A study of Homo sapiens with 16 samples.

Results

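Genes of origin licensing and of the replication fork were followed in resting U2OS cells (a human line from an osteosarcoma) after treatment with either of 2 inhibitors of the kinase DYRK1A. The 53 genes were taken by symbol from a list of the origin recognition complex, the helicase loaders, the MCM helicase and its activators, the replicative polymerases, the sliding clamp and its loaders, Okazaki fragment maturation, fork protection and the RPA complex. All 53 were present among the 59081 genes of the deposited table, and all 53 were among the 20446 that passed the filter on low counts. Confluent cells lost serum for 48 h, and for the last 24 h they received a compound or its vehicle. The groups, of 4 libraries each, were cells given 10 µM harmine hydrochloride, cells given its vehicle water, cells given 25 µM INDY, and cells given its vehicle DMSO. The doses and vehicles of the compounds therefore differ, while the line, the serum withdrawal and the length of treatment are common to all 16 libraries. Poly(A) RNA was sequenced with a kit that keeps strand. The labels number the libraries 1 to 4 and do not say whether these came from separate cultures. A p-value here therefore reflects only how far libraries within groups scatter, and that scatter may be technical. The scatter of a gene is estimated from all 4 groups together, so it is not that of the compared groups alone.

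A replication origin is licensed when the origin recognition complex, CDC6 and CDT1 load the MCM2-7 ring onto DNA. Geminin holds CDT1 back outside G1. The kinase CDC7 with its partner DBF4, together with CDC45 and the GINS complex, then turn the loaded ring into an active helicase, behind which primase and the polymerases copy both strands. Most of these genes are transcribed at the G1/S transition under E2F, and in resting cells many are held down by the DREAM complex, whose assembly needs phosphorylation of LIN52 by DYRK1A. The comparisons ask how the mRNAs of this machinery stood in cells without serum that were given inhibitors of that kinase. The activity of the kinase was not measured in these libraries.

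Libraries held 44301910 to 65889667 estimated counts each, and every one of the 53 genes had between 388 counts (POLA2) and 19785 counts (MCM7) in any library. Levels are given as CPM, counts scaled to a common library size with TMM factors, and differences as log2 fold changes from edgeR. The mesenchymal markers VIM, COL1A1, FN1, CDH2 and RUNX2 each averaged at least 1 CPM in every group, while COL1A2 did not and was near 0. Summed, the mesenchymal markers had 4430 to 4620 CPM with harmine and 3030 to 3540 CPM with water, and 3090 to 3460 CPM with INDY and 3310 to 3570 CPM with DMSO. Of them, FN1 rose most with harmine (0.90) and fell most with INDY (-1.52), COL1A1 fell with both (-0.33 and -0.36) and VIM rose with both (0.22 and 0.28); the part of these markers in the results was not tested. Summed markers of blood, epithelium and endothelium reached at most 0.824, 4.5 and 7.38 CPM in any library. The proliferation marker MKI67 averaged 251 CPM with harmine, 246 with water, 267 with INDY and 281 with DMSO, so proliferation transcripts were not absent from the resting cultures. On the first principal component INDY replicates 1 and 3 (96 and 105.4) were set off from INDY replicates 2 and 4 (80.1 and 85.1), and on the third water replicates 1 and 4 (26.6 and 34.6) were set off from water replicates 2 and 3 (4.3 and 3.9). Counts of calls over the 53 genes, per compound and for the difference, are given with and without these libraries. So are single values whose call they decide and the largest falls and differences with INDY. Joint counts and counts at 1.5-fold, by role or by promoter use all libraries.

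Nearly the whole licensing and fork machinery was higher after harmine. At an adjusted p under 0.01, 46 of the 53 genes were higher and 3 were lower with harmine than with water, where 24.9% of all genes tested were higher and 22.8% were lower. The median log2 fold change of the 53 genes was 0.56 (1.48-fold), beside 0.01 over all genes tested, and 25 of the 53 were called and at least 1.5-fold higher and 0 were at least 1.5-fold lower, beside 8.41% and 7.9% of all genes tested. The genes that fell were DBF4, ORC2 and ORC4, and those not called were ORC5, POLA1, RFC1 and DSCC1. In bulk RNA, a higher level per cell and a larger share of cells that express a gene cannot be told apart. Without water replicates 1 and 4 the counts were 43 higher and 3 lower.

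After INDY the same machinery moved in both directions, as all genes tested did. With INDY, 29 of the 53 genes were higher and 12 were lower than with DMSO, beside 33.2% and 33.4% of all genes tested. Falls were thus a smaller share of the 53 genes than of all genes tested. The median log2 fold change was 0.17 (1.12-fold), beside -0.01 over all genes tested, and 3 rises (ORC1, TIMELESS and ATAD5) and 5 falls (POLA2, POLA1, WDHD1, DSCC1 and ORC3) were at least 1.5-fold. Both counts are smaller shares of the 53 than the 14.3% and 19.4% of all genes tested that were called and at least 1.5-fold higher and lower. Without INDY replicates 1 and 3 the counts of calls were 32 higher and 10 lower. ORC3 (-0.45) then fell by less than 1.5-fold and CDT1 (0.62) rose by more than 1.5-fold. The 12 falls were in DNA polymerase alpha-primase (POLA1, POLA2 and PRIM1), lagging strand ligation and clamp loading (LIG1, RFC2 and DSCC1), fork coupling (WDHD1 and TIPIN), and single members of larger complexes (MCM7, ORC3, CDC45 and RPA2).

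**Figure D1:**
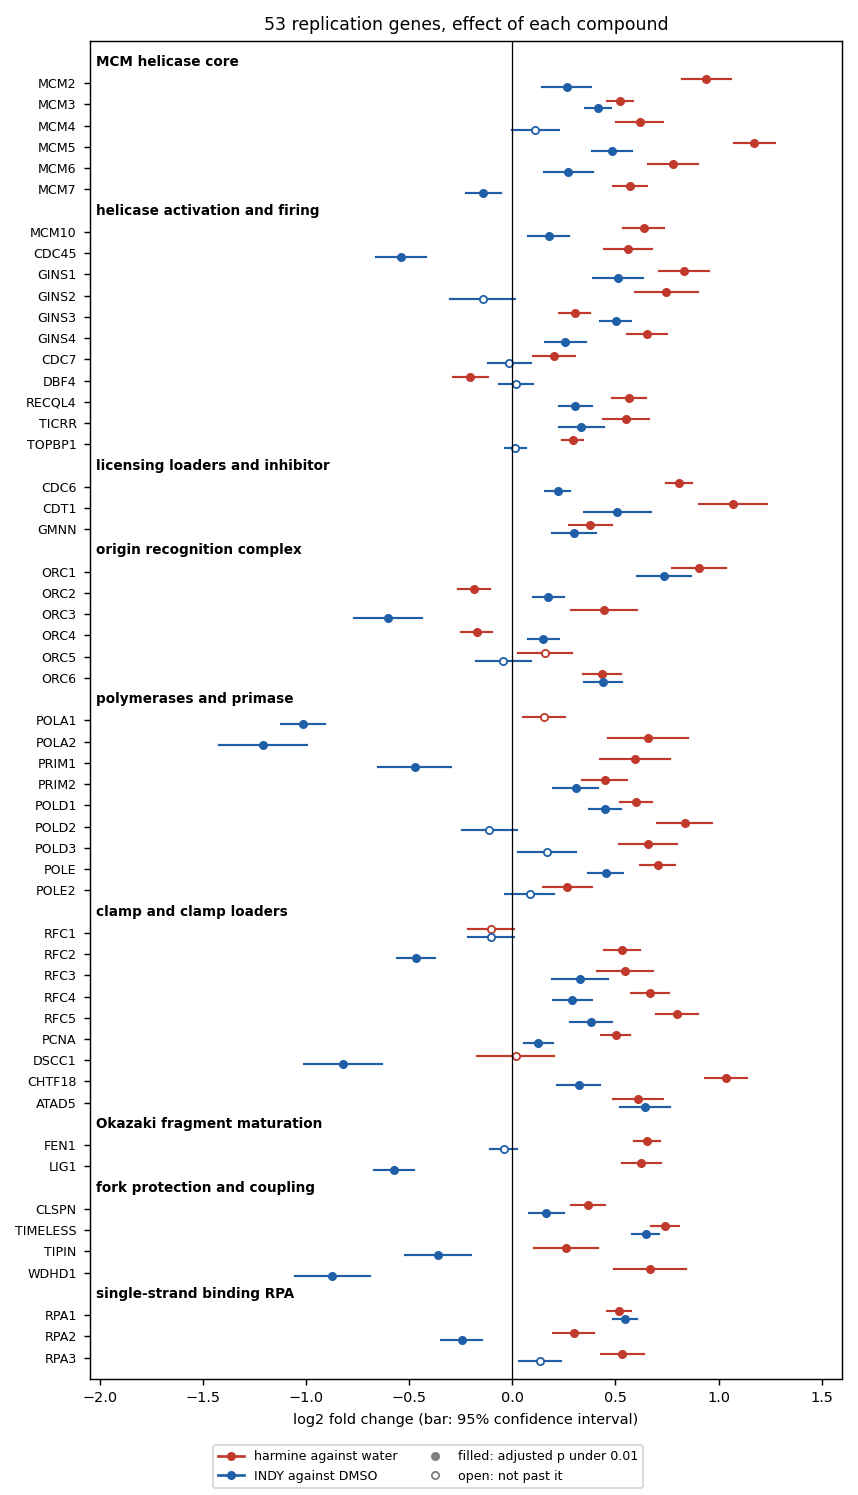
Log2 fold changes of the 53 genes, grouped by role, for harmine against water (red) and INDY against DMSO (blue), with 95% confidence intervals; filled points have an adjusted p under 0.01. The 46 filled red points to the right of 0 and the 12 filled blue points to the left of it, led by POLA2 and POLA1, can be read by role.

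Read together, 27 genes were higher with both compounds, a joint call that 12.1% of all genes tested received. Another 10 rose with harmine but fell with INDY (MCM7, ORC3, CDC45, POLA2, PRIM1, RFC2, LIG1, TIPIN, WDHD1 and RPA2), a pattern of 6.26% of all genes tested. ORC2 and ORC4 showed the opposite, lower with harmine and higher with INDY, as did 4.55% of all genes tested. Of the 46 genes higher with harmine, 27 were thus higher and 10 lower with INDY. Over all genes tested, 5082 were higher with harmine, of which 2464 were higher and 1279 lower with INDY. A fall with INDY was therefore no larger a share of the harmine rises here than over all genes tested. Only 3 of the 53 were called lower with harmine, and none of these was also called lower with INDY. The share of all genes tested that were lower with both was not counted. These joint counts use all libraries. Without INDY replicates 1 and 3, the INDY calls of MCM7, TIPIN and CLSPN were lost and those of MCM4, POLD3, POLE2 and RPA3 were gained as rises. The compounds share no control libraries.

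The level of the whole set was then read in every library. Each gene's log2 CPM was taken minus its mean in the own vehicle, and the median over the 53 genes was 0.57, 0.58, 0.56 and 0.60 in harmine replicates 1 to 4, against -0.06, 0.07, 0.06 and -0.08 in the water replicates. It was 0.17, 0.23, 0.10 and 0.20 in INDY replicates 1 to 4, against -0.04, 0.02, 0.01 and 0.01 in the DMSO replicates. Every treated library lay above every library of its own vehicle. INDY replicate 3, of the pair that lay apart, was the lowest of the INDY libraries.

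**Figure D2:**
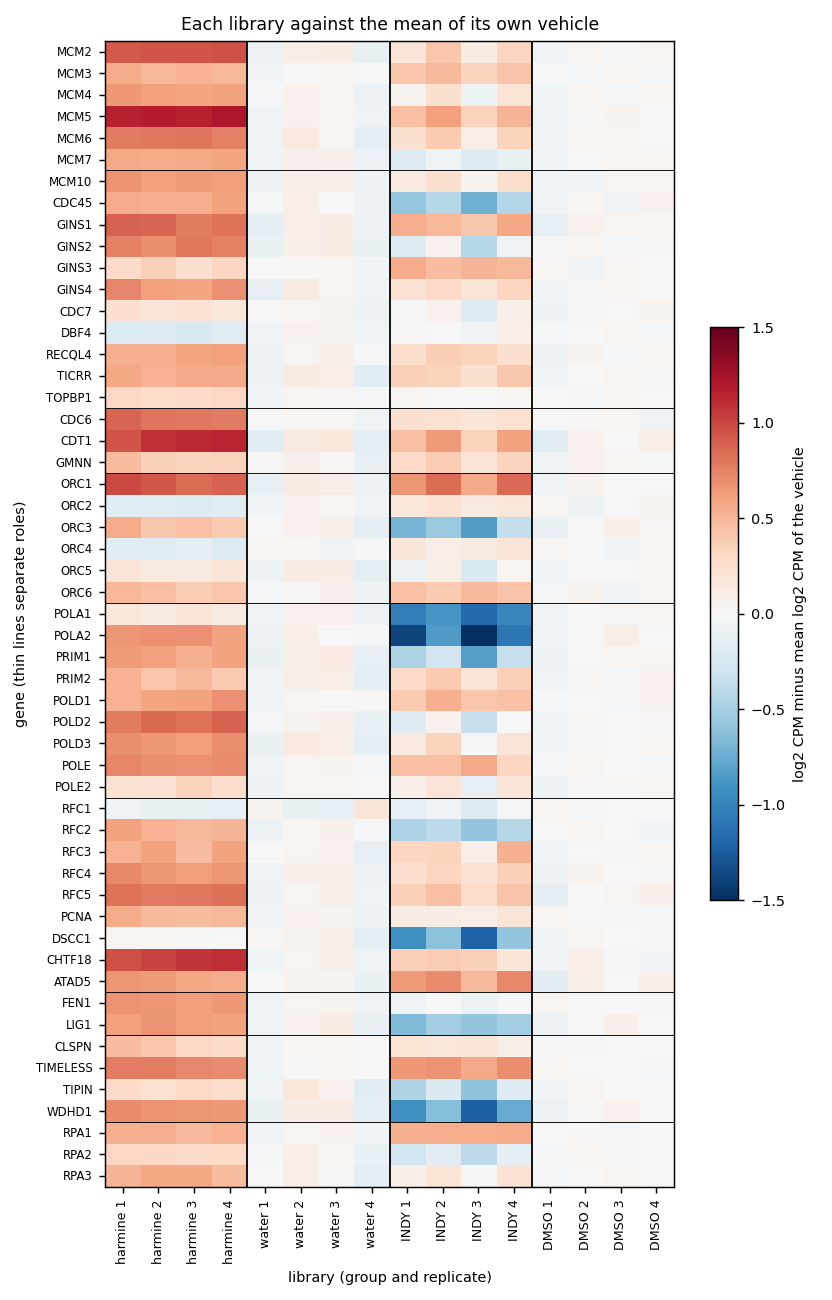
Each library's log2 CPM minus the mean log2 CPM of its own vehicle, for the 53 genes (rows, by role) in 16 libraries (columns; harmine, water, INDY and DMSO). The harmine columns are red over nearly all rows, whereas the INDY columns hold blue rows such as POLA1, POLA2, WDHD1, DSCC1 and ORC3, deepest in INDY replicate 3.

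Promoters were read from the RefSeq table of windows from 250 bases before to 50 bases after each transcription start (GRCh38.p14), which holds 44 of the 53 genes. MCM4, MCM5, GINS4, RECQL4, POLD3, DSCC1, ATAD5, RPA2 and RPA3 have no entry there. The E2F-type motif was searched on both strands in 8 spellings, namely TTTCCCGC, TTTCCCGG, TTTCGCGC, TTTCGCGG, TTTGCCGC, TTTGCCGG, TTTGGCGC and TTTGGCGG. It was found in 23 of the 44 promoters (52.3%), beside 6.19% of 35116 promoters in the table and 8.52% of the 18658 promoters of genes tested. CCAAT, the box bound by NF-Y, was found in 25 of the 44 (56.8%), beside 34.6% of all promoters. The CHR spellings TTTGAA or TTCGAA were found only in MCM6 and DBF4 (4.55%), beside 16.4% of all promoters. Matches on opposite strands can overlap, as the E2F-type pairs of MCM6 do, and CHR spelled TTCGAA reads the same on both strands. A match of letters is a description and not evidence that a factor is bound.

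The stretches shown here were picked by hand as examples. They come from genes that rose with both compounds, genes that the compounds moved in opposite directions, and a gene that fell with harmine. The part of these sequences in the changes was not tested. Capitals mark E2F-type and CCAAT matches on either strand, and each stretch reads 5′ to 3′ on the gene's strand and ends just before the start. CDT1 (chr16:88803669-88803788, plus strand) holds 2 adjoining E2F-type matches on opposite strands, CDC6 (chr17:40287759-40287878, plus strand) and MCM6 (chr2:135876444-135876643, minus strand) hold E2F-type matches with CCAAT boxes, and these 3 rose with both compounds. ORC1 (chr1:52404424-52404543, minus strand), which also rose with both, and ORC2 (chr2:200963661-200963780, minus strand), which fell with harmine, hold a CCAAT box and no E2F-type match in the exact spellings searched. No annotated untranslated region overlaps these 5 stretches, the last 20 bases of the ORC2 stretch are an exon of an ORC2 transcript, and the whole ORC2 stretch lies within an annotated gene on the opposite strand (ENSG00000183308).
CDT1: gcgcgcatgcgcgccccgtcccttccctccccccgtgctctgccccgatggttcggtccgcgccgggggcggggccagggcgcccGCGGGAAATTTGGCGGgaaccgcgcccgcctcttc
CDC6: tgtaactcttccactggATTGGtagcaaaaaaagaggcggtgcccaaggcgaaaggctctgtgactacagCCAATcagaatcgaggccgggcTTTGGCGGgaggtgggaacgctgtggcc
MCM6: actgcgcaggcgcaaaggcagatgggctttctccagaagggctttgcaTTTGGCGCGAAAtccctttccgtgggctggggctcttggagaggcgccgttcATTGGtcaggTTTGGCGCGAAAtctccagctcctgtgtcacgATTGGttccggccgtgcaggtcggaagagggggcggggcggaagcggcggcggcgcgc
ORC1: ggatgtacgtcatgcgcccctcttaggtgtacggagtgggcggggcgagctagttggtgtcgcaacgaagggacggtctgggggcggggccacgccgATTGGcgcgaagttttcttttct
ORC2: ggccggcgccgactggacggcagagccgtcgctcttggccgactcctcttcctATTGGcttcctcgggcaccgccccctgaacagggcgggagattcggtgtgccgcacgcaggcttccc

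Of the 10 genes that rose with harmine and fell with INDY, POLA2, CDC45, LIG1, MCM7 and ORC3 hold E2F-type matches, in spellings that CDT1, CDC6 or MCM6 also hold. Those of POLA2, CDC45 and LIG1 are shown as 30 bases around each match because annotated 5′ exons overlap them. The POLA2 matches start 53 and 24 bases before the RefSeq start (chr11:65261898-65261927 and chr11:65261927-65261956, plus strand), the CDC45 match 25 bases before it (chr22:19479884-19479913, plus strand) and the LIG1 match 114 bases before it (chr19:48170440-48170469, minus strand).
POLA2, first match: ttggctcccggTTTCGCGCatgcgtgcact
POLA2, second match: tgcacaaaccaTTTGGCGGgtttttccggc
CDC45: aggagccgtgaTTTGGCGGgagtcttgacc
LIG1: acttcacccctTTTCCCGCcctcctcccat

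Calls were then counted by whether a promoter held an E2F-type match. With harmine, 21 of the 23 genes with an E2F-type match were higher and 0 were lower (median log2 fold change 0.56), and of the 21 genes without a match, 17 were higher and 3 were lower (median 0.53). With INDY, 13 of the 23 were higher and 6 were lower (median 0.17), and of the 21 without a match, 12 were higher and 4 were lower (median 0.17). DBF4, ORC2 and ORC4, the 3 genes that fell with harmine, hold no E2F-type match in the window.

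**Figure D3:**
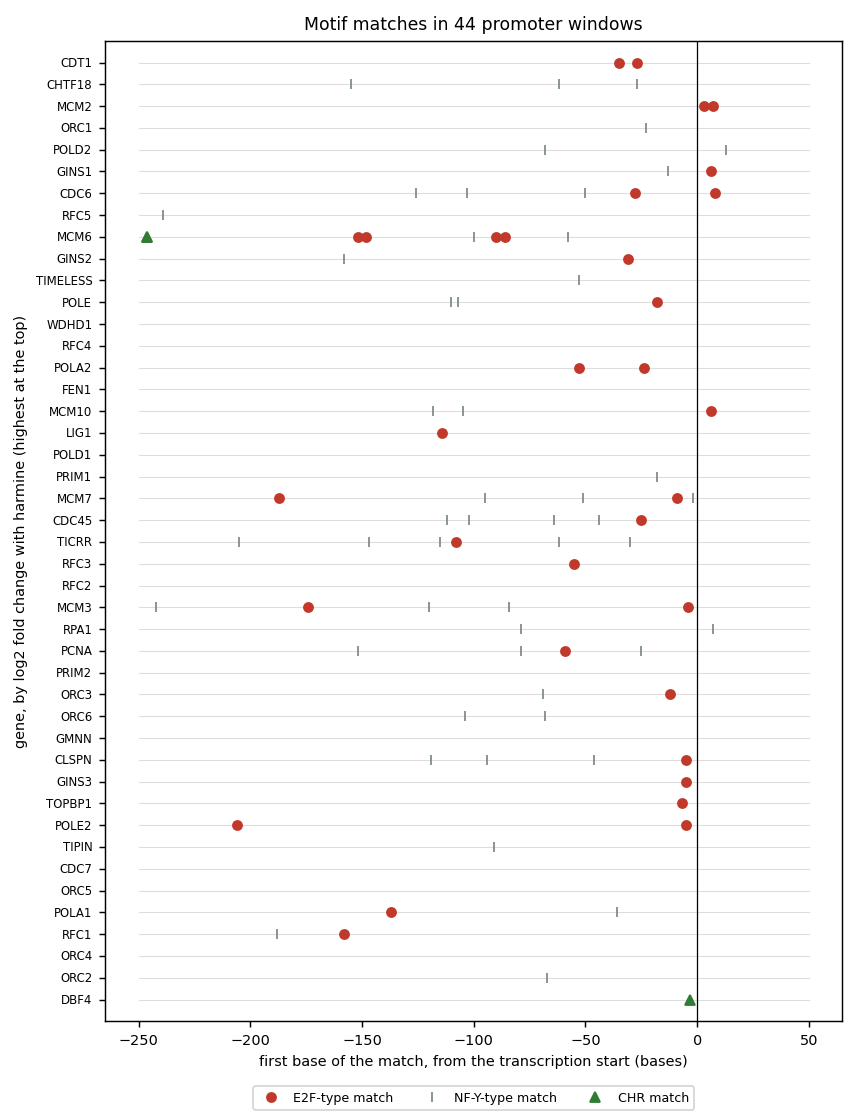
First base of each E2F-type match (red), CCAAT match (grey, named NF-Y-type) and CHR match (green) relative to the transcription start, in 44 promoter windows ordered by the log2 fold change with harmine. E2F-type matches stand in 23 rows, from CDT1 at the top to RFC1 near the bottom, and the rows of ORC4, ORC2 and DBF4 hold none.

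CDT1 and CDC6, which load the helicase together with the origin recognition complex, rose with both compounds. CDT1, which delivers the MCM ring to the origin (chr16:88803789-88809258, plus strand; gene coordinates are those of GENCODE 44 on GRCh38), had 103.4, 115.8, 117.2 and 119.4 CPM with harmine, against 48.5, 59, 60.3 and 49.2 CPM with water. It had 91.9, 104.7, 85.7 and 102.5 CPM with INDY, against 60.2, 70.3, 67.6 and 72.4 CPM with DMSO. Neither treated group overlapped its vehicle, and the log2 fold change was 1.07 (SE 0.078, adjusted p = 1.46e-09) for harmine and 0.51 (SE 0.078, adjusted p = 9.06e-06) for INDY. The DMSO libraries themselves stood above the water libraries for CDT1 by 0.32 (adjusted p = 0.0146), so against the DMSO libraries the harmine value would be 0.75. CDC6, the ATPase that works beside CDT1, rose by 0.81 with harmine and 0.22 with INDY.

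GMNN, which encodes geminin, the inhibitor of CDT1, also rose with both, by 0.38 with harmine and 0.30 with INDY. Per kilobase of transcript, the ratio of CDT1 to GMNN was 1.98 ± 0.203 with harmine and 1.22 ± 0.108 with water (mean ± SD, n = 4). It was 1.78 ± 0.0768 with INDY and 1.54 ± 0.104 with DMSO. This mRNA ratio was thus higher in all 4 harmine libraries (lowest 1.68) than in the water libraries (highest 1.34). It was also higher in all 4 INDY libraries (lowest 1.71) than in the DMSO libraries (highest 1.69). Against the other vehicle the harmine libraries did not stand apart, since the highest DMSO ratio was above the lowest harmine ratio.

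All 6 subunits of the MCM2-7 helicase rose with harmine, by 0.52 (MCM3) to 1.17 (MCM5) on the log2 scale. MCM5 (chr22:35400134-35425431, plus strand) had 206.4, 210.4, 208 and 215.4 CPM with harmine, against 89.1, 97.6, 96.1 and 89.6 CPM with water. It had 133.1, 149.2, 123.1 and 138.6 CPM with INDY, against 92.6, 98.7, 100.7 and 97.2 CPM with DMSO. Both treated groups lay wholly above their vehicles, and the log2 fold change was 1.17 (SE 0.047, adjusted p = 7.14e-13) for harmine, the largest rise of the 53 genes, and 0.48 (SE 0.047, adjusted p = 2.5e-08) for INDY. With INDY, MCM2, MCM3, MCM5 and MCM6 rose by 0.26 to 0.48 (MCM6 by 0.41 against water in place of DMSO), MCM4 was not called (0.11, adjusted p = 0.0666; 0.17 and called without INDY replicate 3) and MCM7 fell.

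MCM7 had 228.2, 253.4, 231.8 and 244.7 CPM with INDY, against 254, 265.1, 268.7 and 268.9 CPM with DMSO, and the groups lay just apart. Its log2 fold change of -0.14 (adjusted p = 0.00377) lost its call without INDY replicate 1 or 3 or without DMSO replicate 3 or 4, and over these, the setting without INDY replicates 1 and 3 together and the setting with water as the control it lay between -0.14 and -0.08. With harmine the same gene rose by 0.57. Per kilobase, the most and least abundant of the 6 subunits differed 3.25-fold with harmine and 3.8-fold with water, and 2.83-fold with INDY and 3.81-fold with DMSO. MCM7 was the most abundant in all groups except INDY, where MCM3 was.

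The origin recognition complex did not move as a unit. ORC1, the ATPase subunit whose level varies through the cell cycle, had 54.5, 52.5, 49.3 and 50.7 CPM with harmine, against 25.3, 30.1, 28.9 and 25.9 CPM with water. It had 48.4, 54.9, 45.6 and 55.3 CPM with INDY, against 29.2, 31.8, 30.9 and 30.8 CPM with DMSO, and neither pair of groups overlapped. Its log2 fold change was 0.91 (SE 0.063, adjusted p = 7.26e-10) for harmine and 0.73 (SE 0.063, adjusted p = 4.05e-09) for INDY, where it was the largest rise of the 53 genes. ORC6 rose by 0.43 and 0.44, and ORC5 was called with neither compound.

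ORC2 (chr2:200908977-200963680, minus strand), a core subunit, had 33.4, 32.9, 32.4 and 32.8 CPM with harmine, against 36.2, 39, 38.3 and 36 CPM with water. It had 42.4, 43.9, 41.2 and 42.4 CPM with INDY, against 38.4, 35.8, 37.3 and 39 CPM with DMSO. The harmine libraries lay below all water libraries and the INDY libraries above all DMSO libraries, with log2 fold changes of -0.19 (SE 0.036, adjusted p = 0.000241) and 0.17 (SE 0.036, adjusted p = 0.000243). ORC4, another core subunit, had 30.2, 29.7, 30.8 and 29.3 CPM with harmine, against 34.9, 34.6, 32.3 and 33.5 CPM with water. It had 37.7, 35.7, 36.5 and 37.7 CPM with INDY, against 33.6, 33, 32 and 34.3 CPM with DMSO. Its log2 fold changes of -0.17 (SE 0.036, adjusted p = 0.000411) and 0.15 (SE 0.035, adjusted p = 0.000857) had the same signs as those of ORC2, and these changes were small, 0.879-fold and 0.887-fold with harmine and 1.13-fold and 1.11-fold with INDY.

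ORC3, the partner of ORC2 in the core, moved the other way. It had 32.2, 28.9, 29.7 and 28.7 CPM with harmine, against 21.8, 22.8, 23.2 and 19.8 CPM with water. It had 15.4, 17, 14 and 19.5 CPM with INDY, against 23.4, 25, 26.3 and 25.2 CPM with DMSO. The groups did not overlap, and the log2 fold change was 0.44 (SE 0.076, adjusted p = 5.79e-05) for harmine and -0.60 (SE 0.078, adjusted p = 1.12e-06) for INDY. Among the INDY libraries replicates 3 and 1 were the lowest, and without them the fall was -0.45. Against DMSO in place of water the rise with harmine was 0.26.

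In helicase activation nearly all genes rose with harmine and fewer with INDY. With harmine 10 of its 11 genes rose and 1 fell, beside 24.9% and 22.8% of all genes tested. With INDY 6 rose and 1 fell, beside 33.2% and 33.4% of all genes tested. GINS1, of the GINS complex that bridges CDC45 and MCM, rose most among the 11 with both compounds, by 0.83 with harmine and 0.51 with INDY. GINS2 and GINS4 rose by 0.75 and 0.65 with harmine, and with INDY GINS4 rose by 0.26 while GINS2 was not called (-0.14, 95% confidence interval -0.30 to 0.014; called at -0.21 without INDY replicate 2). GINS3 rose more with INDY (0.50) than with harmine (0.30), and the difference passed the test (adjusted p = 0.00217), but not without the filter on low counts.

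CDC45, the helicase cofactor that joins MCM and GINS, had 38.7, 38.2, 38.4 and 39.9 CPM with harmine, against 25.7, 28.2, 26.4 and 24.8 CPM with water. It had 18.1, 20, 16.2 and 19.9 CPM with INDY, against 26, 27.5, 26.1 and 28.3 CPM with DMSO. All 4 libraries of each treated group lay on one side of the vehicle, above it with harmine (0.56, SE 0.055, adjusted p = 7.39e-08) and below it with INDY (-0.54, SE 0.057, adjusted p = 8.12e-08). MCM10, RECQL4 and TICRR, which act with CDC45 and GINS in building the active helicase, rose by 0.55 to 0.64 with harmine and by 0.18 to 0.34 with INDY, though the call of MCM10 was lost without DMSO replicate 2 (0.16). The scaffold TOPBP1 rose with harmine (0.29) and was not called with INDY (0.015, adjusted p = 0.601).

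The kinase that fires licensed origins showed opposite moves of its subunits with harmine. DBF4 (chr7:87876216-87909553, plus strand), the activating subunit, had 25.1, 25.5, 24.8 and 25.6 CPM with harmine, against 27.9, 30.4, 30.2 and 27.8 CPM with water. It had 32.7, 32.1, 31.1 and 34.5 CPM with INDY, against 31.6, 32, 33.2 and 31.9 CPM with DMSO. The harmine group lay below the water group (-0.20, SE 0.040, adjusted p = 0.000256), the largest fall with harmine among the 53 genes (-0.35 against DMSO in place of water), and the INDY and DMSO groups overlapped (0.016, SE 0.040, adjusted p = 0.721). CDC7, the catalytic subunit, rose with harmine (0.20). This call was lost without harmine replicate 1 (0.17), without water replicates 1 and 4 (0.16) and against DMSO in place of water (0.15). Per kilobase, DBF4 over CDC7 was 0.431 ± 0.0159 with harmine and 0.572 ± 0.015 with water, and 0.624 ± 0.0374 with INDY and 0.609 ± 0.025 with DMSO. Of the transcript sequence of DBF4, 5.72% also occurs in the pseudogene DBF4P1, which had at most 0.695 CPM on average in any group.

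DNA polymerase alpha-primase, which lays the primers for both strands, held the largest falls with INDY. POLA2 (chr11:65261913-65305959, plus strand), its regulatory subunit, had 30.3, 30.7, 30.9 and 29.1 CPM with harmine, against 18.1, 20.5, 19.2 and 18.8 CPM with water. It had 7.76, 11.3, 6.71 and 9.59 CPM with INDY, against 19.4, 20.2, 21.6 and 20.2 CPM with DMSO. It rose with harmine (0.66, SE 0.093, adjusted p = 6.75e-06) and had the largest fall of the 53 genes with INDY (-1.21, SE 0.101, adjusted p = 3.02e-09), where replicates 3 and 1 were the lowest. Without those replicates the fall was -0.95. The SD of its CPM was 22.86% of the mean with INDY and 4.44% with DMSO, and 2.66% with harmine and 5.23% with water. The SE pools the groups and so does not show the wider scatter with INDY. An annotated gene that overlaps POLA2 (ENSG00000285816) shares 15.2% of its transcript sequence and had 15.8 CPM with harmine and 16.8 CPM with water, and 8.45 CPM with INDY and 15.1 CPM with DMSO, so the split of reads between the 2 is uncertain. Summed over both genes, harmine over water was 1.26 and INDY over DMSO was 0.483. The sums and the values of the overlapping gene were scaled to library totals without TMM factors.

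POLA1 (chrX:24693873-24996986, plus strand), the catalytic subunit, had 18.1, 20.1, 16.5 and 18.9 CPM with INDY, against 35.7, 37.1, 37.5 and 38.3 CPM with DMSO. It had 39.6, 38.6, 39.7 and 38.7 CPM with harmine, against 34.1, 36.9, 36.8 and 33 CPM with water. The fall with INDY was -1.01 (SE 0.051, adjusted p = 2.45e-12), while the harmine libraries lay above the water libraries by 0.15 without being called (adjusted p = 0.0113; called by DESeq2, 0.14), and without INDY replicates 1 and 3 the fall was -0.92. PRIM1, the catalytic primase subunit, had 58.1, 57.1, 54.1 and 56.7 CPM with harmine, against 34.8, 39.7, 40.7 and 34.3 CPM with water. The gene had 29.7, 33.7, 23.1 and 32.3 CPM with INDY, against 39, 41.3, 42.1 and 42.3 CPM with DMSO. It rose with harmine (0.59, SE 0.081, adjusted p = 4.77e-06) and fell with INDY (-0.47, SE 0.084, adjusted p = 4.66e-05; -0.31 without INDY replicates 1 and 3). PRIM2, the large primase subunit, rose with both, by 0.45 and 0.31.

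The subunits of this complex stood in other proportions with INDY. Per kilobase, POLA2 over PRIM2 was 0.072 ± 0.0121 with INDY and 0.207 ± 0.0113 with DMSO, against 0.242 ± 0.0082 with harmine and 0.21 ± 0.0133 with water. POLA1 over PRIM2 was 0.0974 ± 0.00181 with INDY and 0.244 ± 0.00471 with DMSO, and PRIM1 over PRIM2 was 0.605 ± 0.0604 with INDY and 1.04 ± 0.0305 with DMSO. The most and least abundant of the 4 subunits differed 13.8-fold per kilobase with INDY and 5.04-fold with DMSO. For each of these 3 ratios, every INDY library lay below every DMSO library.

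**Figure D4:**
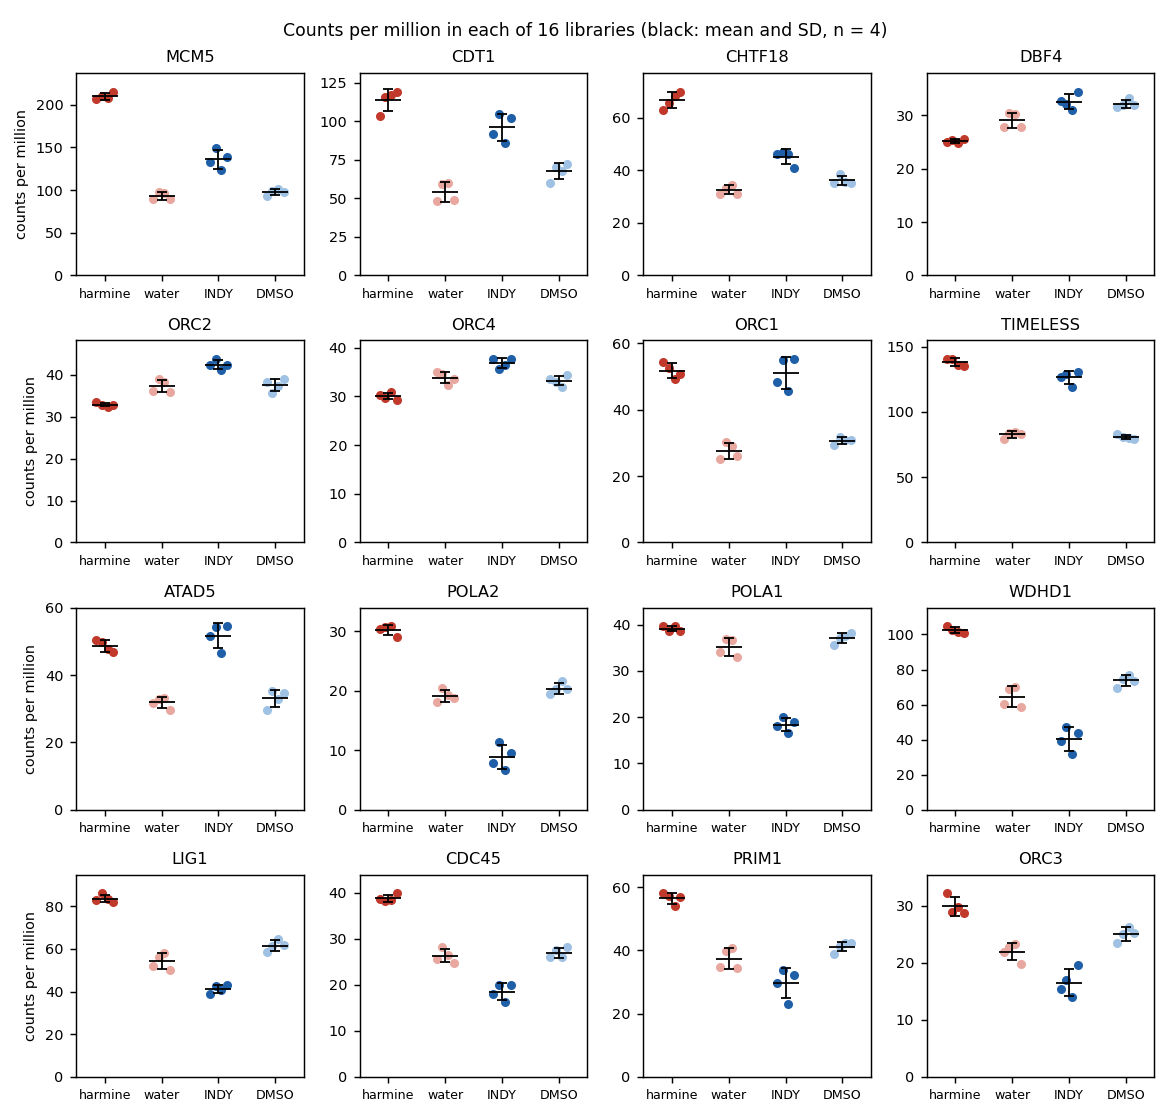
CPM in each of the 16 libraries (points) with the mean and SD of 4 libraries (black), for 16 genes, with harmine left of water and INDY left of DMSO. POLA2 sits at 6.71 to 11.3 CPM with INDY and 19.4 to 21.6 CPM with DMSO, while MCM5, CDT1, ORC1 and TIMELESS sit above their vehicles with both compounds.

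The elongating polymerases rose with harmine throughout. POLD1, POLD2 and POLD3 of polymerase delta rose by 0.60, 0.83 and 0.66, and POLE and POLE2 of polymerase epsilon by 0.70 and 0.27. With INDY, of these 5 genes the catalytic subunits POLD1 (0.45) and POLE (0.45) rose, while POLD2, POLD3 and POLE2 were not called, with confidence intervals of -0.24 to 0.022, 0.025 to 0.31 and -0.034 to 0.20. The call of POLE2 with harmine was lost without water replicates 1 and 4 (0.23), and without INDY replicate 3, POLD3 (0.23) and POLE2 (0.16) were called higher. Per kilobase, POLD2 over POLD1 was 2.54 ± 0.241 with INDY and 3.75 ± 0.0814 with DMSO, and 4.37 ± 0.106 with harmine and 3.71 ± 0.239 with water.

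PCNA, the sliding clamp, rose by 0.50 with harmine and by 0.13 with INDY, a call lost with upper-quartile factors (0.10) and without the filter (0.11). Its loaders differed. RFC1, the large subunit of the canonical loader, was called with neither compound against its own vehicle (-0.10 and -0.10, intervals -0.21 to 0.009 and -0.22 to 0.008; -0.32 and called for INDY against water), and RFC3, RFC4 and RFC5 rose by 0.55 to 0.80 with harmine and by 0.29 to 0.38 with INDY. RFC2, which all the loaders share, rose with harmine (0.53) and fell with INDY (-0.47). CHTF18 and DSCC1 belong to the alternative loader that acts in sister chromatid cohesion. CHTF18 had 63, 65.8, 68.4 and 70 CPM with harmine, against 31.2, 33.3, 34.6 and 31.1 CPM with water. The gene had 46.4, 47, 46.4 and 41.1 CPM with INDY, against 35.1, 38.7, 35.7 and 35.2 CPM with DMSO.

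CHTF18 rose with both compounds, by 1.04 (SE 0.049, adjusted p = 5.3e-12) with harmine and 0.32 (SE 0.050, adjusted p = 1.01e-05) with INDY, with INDY replicate 4 below the other INDY libraries. DSCC1 was not called with harmine (0.017, interval -0.17 to 0.20) and fell with INDY (-0.82, adjusted p = 1.45e-07; -0.60 without replicates 1 and 3). ATAD5, which unloads PCNA, had 50.5, 49.8, 47.7 and 46.8 CPM with harmine, against 31.7, 33, 33.2 and 29.7 CPM with water. It had 51.7, 54.1, 46.5 and 54.6 CPM with INDY, against 29.7, 35.3, 32.8 and 34.8 CPM with DMSO. It rose in all 8 treated libraries to above the highest vehicle library, with log2 fold changes of 0.61 (SE 0.057, adjusted p = 3.84e-08) and 0.64 (SE 0.057, adjusted p = 6.61e-09).

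Okazaki fragment processing and fork coupling held further opposite moves. FEN1, the flap endonuclease, rose with harmine (0.65) and was not called with INDY (-0.042, interval -0.11 to 0.023). LIG1, the ligase that seals the fragments, had 82.9, 86.2, 83.2 and 82.1 CPM with harmine, against 51.9, 56.4, 58.2 and 50.3 CPM with water. It had 38.9, 42.7, 40.8 and 43 CPM with INDY, against 58.4, 61.2, 64.7 and 61.9 CPM with DMSO. The harmine libraries lay above and the INDY libraries below their vehicles, with log2 fold changes of 0.62 (SE 0.045, adjusted p = 1.23e-09) and -0.57 (SE 0.046, adjusted p = 1.74e-09).

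WDHD1, which tethers polymerase alpha to the helicase, had 104.9, 102.3, 101.6 and 100.8 CPM with harmine, against 60.1, 69.1, 70 and 58.4 CPM with water. It had 39.1, 47.2, 31.5 and 43.6 CPM with INDY, against 69.4, 74.8, 77.1 and 73.6 CPM with DMSO. Its log2 fold change was 0.67 (SE 0.084, adjusted p = 1.63e-06) for harmine and -0.87 (SE 0.086, adjusted p = 3.17e-08) for INDY, and among the INDY libraries replicates 3 and 1 were again the lowest (-0.69 without them). TIMELESS, of the fork protection complex, had 140.8, 140.8, 136.3 and 135.6 CPM with harmine, against 79.2, 84.1, 84.8 and 83.1 CPM with water. It had 126.8, 128.8, 119.5 and 130.8 CPM with INDY, against 82.8, 80.9, 80.3 and 79.2 CPM with DMSO, and rose with both, by 0.74 (SE 0.032, adjusted p = 1.49e-12) with harmine and 0.65 (SE 0.032, adjusted p = 1.75e-12) with INDY.

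TIPIN, the partner of TIMELESS, shares 16.8% of its transcript sequence with RPL9P25, which had at most 0.111 CPM on average in any group. It rose with harmine (0.26, adjusted p = 0.00589) and fell with INDY (-0.36, adjusted p = 0.00032). The rise lost its call without any single harmine library and without water replicate 1, 3 or 4, with values of 0.14 to 0.26 over the alternatives that lost it, and the fall lost its call without INDY replicates 1 and 3 together (-0.20). CLSPN, the checkpoint mediator at forks, rose by 0.37 and 0.17, and the second call was lost without INDY replicates 1 and 3 (0.14). RPA1 of the single-strand binding complex rose to a like degree with both (0.52 and 0.55; interval of the difference -0.11 to 0.053). RPA2 rose with harmine (0.30) and fell with INDY (-0.25; -0.15 without replicates 1 and 3), and RPA3 rose with harmine (0.53) and was not called with INDY (0.13; 0.17 and called without replicate 3).

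The effects of the compounds, each taken against its own vehicle, were then set against each other in the same fit. The effect of harmine was above that of INDY for 34 of the 53 genes and below it for 4 (ORC2, ORC4, GINS3 and DBF4), beside 28.1% and 26.4% of all genes tested, with a median difference of 0.40 on the log2 scale. At 1.5-fold or more the counts were 18 above and 0 below, beside 17.2% and 12.0% of all genes tested. Without INDY replicates 1 and 3 the counts were 33 and 4, and without water replicates 1 and 4 they were 32 and 4. The largest differences were those of POLA2 (1.87, SE 0.137, adjusted p = 1.37e-09), WDHD1 (1.54, SE 0.120, adjusted p = 3.07e-09) and LIG1 (1.198, SE 0.065, adjusted p = 2.27e-11). Without INDY replicates 1 and 3 these differences were 1.596, 1.345 and 1.125. The largest in the other direction were those of ORC2 (-0.36, SE 0.051, adjusted p = 6.15e-06), ORC4 (-0.32, SE 0.050, adjusted p = 1.8e-05) and DBF4 (-0.22, SE 0.057, adjusted p = 0.00221). For 22 of the 34 genes no fall with INDY was called, and 15 of the 34 were higher with both compounds, such as MCM2, CDC6 and CDT1. A missing call does not exclude a fall, as for GINS2 (-0.14, interval -0.30 to 0.014) and POLD2 (-0.11, interval -0.24 to 0.022). The shares of all genes tested for these counts were not taken. The call of CLSPN in this test was lost in 6 of the alternatives (0.15 to 0.18), and that of GINS1 (0.32) without INDY replicates 1 and 3 (0.27) and without water replicates 1 and 4 (0.22). CDC7 (0.22, adjusted p = 0.0108) was not called but was called in 5 of the alternatives (0.21 to 0.24). Differences that did not pass the test were small for RFC1, ORC6, RPA1, ATAD5 and GMNN, whose intervals together spanned -0.20 to 0.23. Doses and vehicles differ between the compounds, and no dose series was measured.

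**Figure D5:**
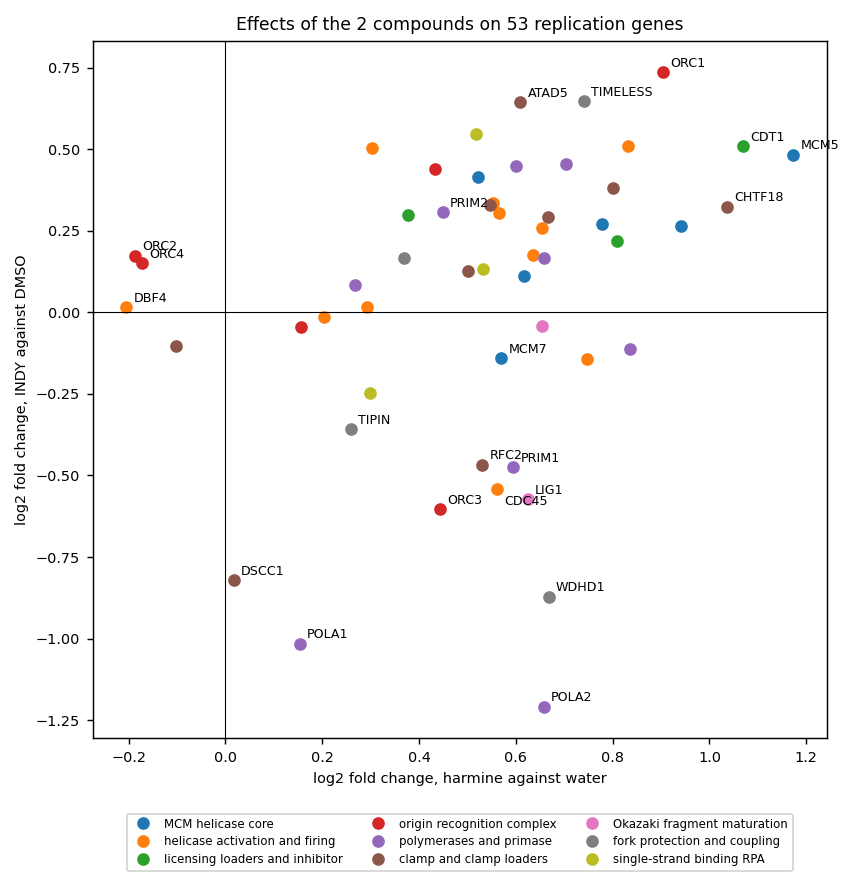
Log2 fold change with INDY against DMSO (vertical axis) and with harmine against water (horizontal axis) for the 53 genes, coloured by role. Most points lie to the right of 0, and those of POLA2, WDHD1, ORC3, LIG1, CDC45 and PRIM1 lie below 0 on the vertical axis at 0.44 to 0.67 on the horizontal axis.

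Between the vehicles none of the 53 genes was called by edgeR (0 higher and 0 lower with DMSO than with water, beside 1.58% and 2.71% of all genes tested). At an unadjusted p under 0.05, 16 were higher and 1 was lower, and DESeq2 called 3 higher and 1 lower. Of the 53 log2 fold changes 45 were above 0, with a median of 0.08. Over all genes tested, 10124 of 20446 were above 0, with a median of -0.002. The gap was largest for CDT1 (0.32) upward and RFC1 (-0.21) downward. With the vehicles exchanged, 44 genes were higher and 3 lower with harmine than with DMSO, and 33 were higher and 12 lower with INDY than with water. Shares of all genes tested are not given for the exchanged vehicles, the unadjusted p or DESeq2.

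Other genes of the pathway were counted in the same way. Of 30 further replication genes, 16 rose and 5 fell with harmine (median log2 fold change 0.20), where 24.9% and 22.8% of all genes tested did, and 12 rose and 8 fell with INDY (median 0.06), where 33.2% and 33.4% of all genes tested did. RNASEH2A, the catalytic subunit of ribonuclease H2, rose most with harmine (1.28), RNASEH2C of the same enzyme rose most with INDY (1.103), and HELB, a helicase that binds RPA, fell most with both (-1.02 and -0.91). Of 16 regulators of licensing, 10 rose and 1 fell with harmine, led by E2F1 (0.67), the transcription factor of the G1/S genes, and 6 rose and 5 fell with INDY, near the shares of all genes tested with INDY. CUL4B, a scaffold of the ubiquitin ligase family that degrades CDT1, fell with both (-0.26 and -0.71). FZR1, an activator of the anaphase-promoting complex, rose most among the regulators with INDY (0.60).

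A list of 10 mitotic genes was read as a sign of cycling cells. With harmine 2 rose and 2 fell, from TTK (0.39) to KIF20A (-0.56), and with INDY 5 rose and 0 fell, led by CDC20 (0.86). The harmine counts are close to the 24.9% and 22.8% of all genes tested, and with INDY 33.2% and 33.4% of all genes tested rose and fell. Their summed level was 1060 to 1100 CPM with harmine and 898 to 1100 CPM with water, and 1320 to 1560 CPM with INDY and 1110 to 1220 CPM with DMSO. The summed mitotic level thus overlapped between harmine and water, and lay higher in every INDY library than in any DMSO library. Their part in the changes of the 53 genes was not tested.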

How the data were processed

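The 16 libraries were poly(A) RNA from quiescent U2OS cells, 4 per group. The authors estimated transcript abundance with Salmon 1.1 on GENCODE transcripts, with GRCh38 sequence serving as decoy, correcting for GC and sequence bias, and summed it to genes. The table deposited by the authors holds the resulting estimated counts (expected counts) per gene, not normalised, and these were rounded here to whole numbers. The authors' own tests used edgeR 3.28.1, and none of their results were used. All 53 genes matched GENCODE 44 by identifier.

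Counts were analysed in edgeR 4.0.16 (R 4.3.3) with filterByExpr, TMM factors and 1 quasi-likelihood fit of all 4 groups, with Benjamini-Hochberg adjustment over 20446 genes and a threshold of 0.01. The biological coefficient of variation was 0.0561, at 44301910 to 65889667 counts per library. The script was tested on simulated data. Alternatives were DESeq2 1.42.0, upper-quartile factors, no filter, at least 10 counts in every library, only the libraries compared, a replicate block, other thresholds and leaving out each library. Settings without 2 libraries of a group, with exchanged vehicles and with promoters of tested genes as background were chosen after seeing the data. CPM values are TMM-normalised, except those of genes that share sequence with POLA2, DBF4 and TIPIN and the sums with POLA2. These were scaled to library totals alone. Per-kilobase levels use MANE Select transcript length. Motif searches and plots used Python 3.11.15, pandas 2.3.3 and matplotlib 3.10.9.

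The 53 genes and the other lists were chosen with earlier results of these data known. Values of every library are given for the 3 largest rises and 3 largest falls with each compound, the 3 genes that differed most in either direction between the compounds, and up to 6 genes called in opposite directions; MCM7 was added after its values were seen. Genes outside the 53 given with fold changes are the largest rise and fall called in the replication, regulator, mitotic and mesenchymal lists; MKI67 was added afterwards, and the other marker lists are given by summed level. Confidence intervals are 95%.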

Additional observations from a re-analysis of the deposited data

Results flagged for a closer look

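In 5 of 216 groups of 4 libraries, 1 library lay further from the others than Dixon's criterion allows, and chance alone gives about 1 in 20. GMNN had 29.14 CPM in harmine replicate 1, against 26.53 to 26.9 CPM in the other harmine libraries. PCNA had 149.0 CPM in INDY replicate 4, against 141.2 to 142.4 CPM in the other INDY libraries. CHTF18 had 41.07 CPM in INDY replicate 4, against 46.38 to 47.02 CPM in the other INDY libraries, and 38.68 CPM in DMSO replicate 2, against 35.12 to 35.7 CPM in the other DMSO libraries. The median level of the 53 genes, relative to the mean of the DMSO libraries on the log2 scale, was -0.044 in DMSO replicate 1, against 0.009 to 0.017 in the other DMSO libraries. The calls of GMNN, PCNA and CHTF18 kept their direction and their side of the threshold with each library left out in turn.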

How the results depend on the processing

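The calls of most genes held under the alternatives. Calls were lost with harmine for TIPIN in 10 settings, CDC7 in 3 and POLE2 in 1, with INDY for MCM7 in 6, PCNA in 2, and MCM10, CLSPN and TIPIN in 1 each, and for the difference for CLSPN in 6, GINS1 in 2 and GINS3 in 1. Calls were gained with harmine for POLA1 in 2, with INDY for MCM4, POLD3 and RPA3 in 3 each, POLE2 in 2, and GINS2, RFC1 (-0.32 against water) and DBF4 (0.16 against water) in 1 each, and for the difference for CDC7 in 5 (0.21 to 0.24) and TICRR (0.24), POLD1 (0.16) and RFC3 (0.27) in 1 each. The causes were not tested. Counts with each library left out in turn were 44 to 46 higher and 3 to 3 lower with harmine, 28 to 33 higher and 11 to 13 lower with INDY, and 33 to 35 above and 4 to 4 below for the difference. CDT1 moved most with the control used, to 0.75 with harmine against DMSO and 0.82 with INDY against water, and POLA2 was -0.95 with INDY without replicates 1 and 3.

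With a fold change of at least 1.5 required, 25 genes were higher and 0 lower with harmine, 3 higher and 5 lower with INDY, and 18 above and 0 below for the difference. For DMSO against water the calls, 0 higher and 0 lower in edgeR with 16 and 1 at an unadjusted p under 0.05, were 2 and 1 without a filter, 3 and 1 in DESeq2, and 5 and 1 at an adjusted p under 0.05, and lay between 0 and 2 higher and between 0 and 1 lower with each library left out.

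Deviations of libraries of the same number correlated at -0.053 to -0.007 between harmine and water and -0.019 to 0.087 between INDY and DMSO. Between INDY and DMSO libraries of different numbers the correlations were -0.099 to 0.108. Whether the numbers pair the libraries cannot be told from correlations this weak. With a replicate block the counts were 46 higher and 3 lower with harmine, 29 and 12 with INDY, 35 and 4 for the difference, and 3 and 0 for DMSO against water.

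Signs turned only for values that were not called. With harmine, RFC1 was 0.021 without water replicates 1 and 4 and 0.11 against DMSO, and DSCC1 was -0.004 without a filter, -0.049 without water replicates 1 and 4, -0.15 against DMSO and -0.032 to 0.031 with each library left out. With INDY, without replicates 1 and 3 and then against water, ORC5 was 0.068 and 0.091, CDC7 0.077 and 0.041, and POLD2 0.037 and 0.015, and GINS2 was 0.015 without those replicates. With upper-quartile factors and then without a filter, DBF4 was -0.007 and -0.001 and TOPBP1 -0.009 and -0.003. With each library left out, ORC5 was -0.084 to 0.018, CDC7 -0.039 to 0.047 and DBF4 -0.006 to 0.043. For the difference, ORC6 was 0.002 with upper-quartile factors and RFC1 was -0.001 without a filter, -0.007 with at least 10 counts, -0.014 in DESeq2 and -0.078 without INDY replicates 1 and 3, and with each library left out ORC6 was -0.043 to 0.008, RFC1 -0.060 to 0.064 and ATAD5 -0.10 to 0.018.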
